A study of Saccharomyces cerevisiae with 112 samples.

Results

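The chaperonin CCT, also called TRiC, is the double-ring folding machine of the eukaryotic cytosol, and each of its rings holds 8 related subunits that Saccharomyces cerevisiae encodes in 8 separate genes. The 8 genes described here are TCP1 (YDR212W), CCT2 (YIL142W), CCT3 (YJL014W), CCT4 (YDL143W), CCT5 (YJR064W), CCT6 (YDR188W), CCT7 (YJL111W) and CCT8 (YJL008C). They were chosen by their systematic names, not by a measured value, although earlier results of these data were known. They are 8 of the 5560 yeast features in each table. All 8 had enough reads to enter every test below.

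CCT uses ATP to close its rings over a protein chain, which folds in the enclosed chamber. Actin and the tubulins are its best known clients, and WD-repeat proteins such as Cdc20 and Cdh1 also fold in it; prefoldin hands it newly made actin and tubulin chains, and phosducin-like proteins act beside it as cofactors. Every subunit is essential in yeast. The subunits Tcp1, Cct2, Cct4 and Cct5 sit on the side of the ring that binds ATP tightly, while Cct3, Cct6, Cct7 and Cct8 sit on the side that binds it weakly, and the genes are taken in that order.

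The study took glucose away from growing yeast and followed mRNA by SLAM-seq, in which 4-thiouracil (4TU), a uracil analogue, is built into RNA, alkylated, and read as T-to-C changes in libraries made from mRNA 3′ ends. In the chase set, 2 time courses of strain KWY165 with glucose and 2 without it were sampled at 0, 5, 10, 15, 20, 30 and 45 min (28 libraries). In the 4TU set, total RNA and polysome RNA of strain KWY11376 were sequenced with glucose and 30 min of 4TU, or after 30 min without glucose, with 2 libraries per group (8 libraries); the titles of the latter name a label step without saying whether 4TU came before or during withdrawal. A last set gave 1 library of KWY165 without 4TU for each of those 4 conditions. All strains carry names only, so the alleles behind those names cannot be stated here.

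Depth was 2710630 to 10591665 reads in the chase, 14965187 to 31069123 in the 4TU set and 15482446 to 29223067 where 4TU was left out. No label states that replicate libraries came from separate cultures, and 1 culture may have been sampled again and again over a course, so p-values measure the spread between these libraries, which may be technical. The 2 sets with 4TU differ in strain and in experiment, which cannot be told apart. Each gene was read in 1 window at its 3′ end: in the files' own coordinates (build not named), the TCP1 window lay at chrIV:888662-889207, CCT2 at chrIX:84636-85154, CCT4 at chrIV:201333-201911, CCT5 at chrX:557353-557888, CCT3 at chrX:408913-409640, CCT6 at chrIV:837812-838425, CCT7 at chrX:209280-209928 and CCT8, the only gene of the 8 on the minus strand, at chrX:419519-420207. Opposite-strand windows overlapped those of CCT3 (MAD3, 528 bases), CCT4 (CRD1, 519 bases), CCT5 (ARP3, 492 bases) and CCT7 (GZF3, 335 bases). Of the CCT4 reads, 3.35% were marked as multimapped, against at most 0.272% for the other 7 genes.

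After 30 min without glucose all 8 CCT mRNAs were lower in total RNA than with glucose. Values here are CPM (a gene's reads scaled to a common library size) on the TMM scale, which centres the bulk of genes. A gene is called changed when its adjusted p from edgeR's quasi-likelihood test is below 0.05. These are shares of the mRNA pool of a culture and give no amount per cell. A loss of an mRNA and a gain of other mRNAs cannot be told apart in them. TCP1, the founding member of the family, was at 290.5 and 279 CPM with glucose and at 147 and 135 without it. CCT2 was at 341 and 368 with glucose and at 102 and 97.9 without it. In both genes every library without glucose lay below both libraries with it.

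CCT4, which was also found as a gene that interacts genetically with actin, was at 283 and 262 CPM with glucose and at 115 and 101 without it. CCT5 fell from 212 and 172 to 80.9 and 82.6. Neither pair of groups overlapped. On the weak-binding side, CCT3 was at 179 and 228 with glucose and 106 and 109 without it, and CCT6 was at 266 and 213 against 86.1 and 79.3. CCT7 was at 169 and 151 against 59.1 and 65.7, and CCT8 at 222 and 176 against 86.2 and 83.1. None of these 4 genes overlapped between the groups either. Here and below, such a gap between groups of 2 libraries is a description, and no share over all genes is given beside it.

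The log2 changes ran from -0.92 ± 0.180 (SE, n = 2 libraries per group) for CCT3 to -1.82 ± 0.193 for CCT2, that is from 1.89-fold to 3.54-fold lower, and all 8 were called lower, with edgeR adjusted p between 8.78e-07 (CCT2) and 0.000413 (CCT3). Of the 5540 genes tested, 29.3% were called lower. The median of the 8 was -1.28, beside -0.02 over all genes. By size of change, from the highest, CCT3 ranked 4371 and CCT2 5230 of 5540. The 8 genes together took 3031 and 2486 CPM of unscaled yeast reads with glucose, and 837 and 812 without it.

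The libraries without 4TU had the same sign for each gene, with no replicate check. There the log2 difference between total RNA without and with glucose ran from -1.05 (CCT2, 237 against 114 CPM) to -0.13 (CCT3, 157 against 143), with a median of -0.64 over the 8 genes and -0.02 over 5351 genes. CCT2 was thus the gene with the largest difference and CCT3 the gene with the smallest in both sets of total RNA.

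The chase courses showed when the mRNAs fell. At 0 min the courses with and without glucose overlapped for 6 of the 8 genes, all but CCT4 and CCT8: CCT5, for example, was at 156 and 177 CPM with glucose and 157 and 157 without it. None of the 8 genes was called at 0 min (0.398% of the 5525 genes tested were called lower), and none of the 8 had an unadjusted p below 0.05. At 5 min only CCT6 was called lower, by 0.40 ± 0.136 on the log2 scale (adjusted p 0.0477; 5.45% of genes were called lower). It stood at 215 and 243 without glucose against 284 and 322 with it, and the call was lost with library totals, with spike-in scaling and without any of 3 libraries (both with glucose at 5 min, and replicate 1 without it).

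At 10 min 6 of the 8 were called lower, all but CCT2 and CCT3 (18.2% of genes were called lower), and the 6 lay between -0.30 and -0.42 on the log2 scale. From 15 min on all 8 were called lower, beside 26% of genes at 15 min, 29.6% at 20 min, 34.7% at 30 min and 36.9% at 45 min. The median of the 8 log2 changes went from -0.06 at 0 min through -0.18, -0.41, -0.58, -0.83 and -1.19 to -1.41 at 45 min, while the median over all genes stayed between 0.00 and 0.06. At 20 min CCT2 was no longer called with library totals (edgeR adjusted p 0.195), without replicate 2 with glucose (0.123) or without replicate 1 lacking it (0.166). The calls at 10 and 15 min rest on few libraries: leaving out 1 library gave 0 to 7 genes called lower at 10 min (0 without replicate 2 with glucose, 2 and 1 without either replicate lacking it) and 5 to 6 at 15 min (5 without either replicate lacking glucose). With library totals in place of TMM 0 genes were called at 10 min and 4 at 15 min, but the CCT median relative to that of all genes moved little, from -0.45 to -0.45 at 10 min and from -0.61 to -0.60 at 15 min.

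**Figure D1:**
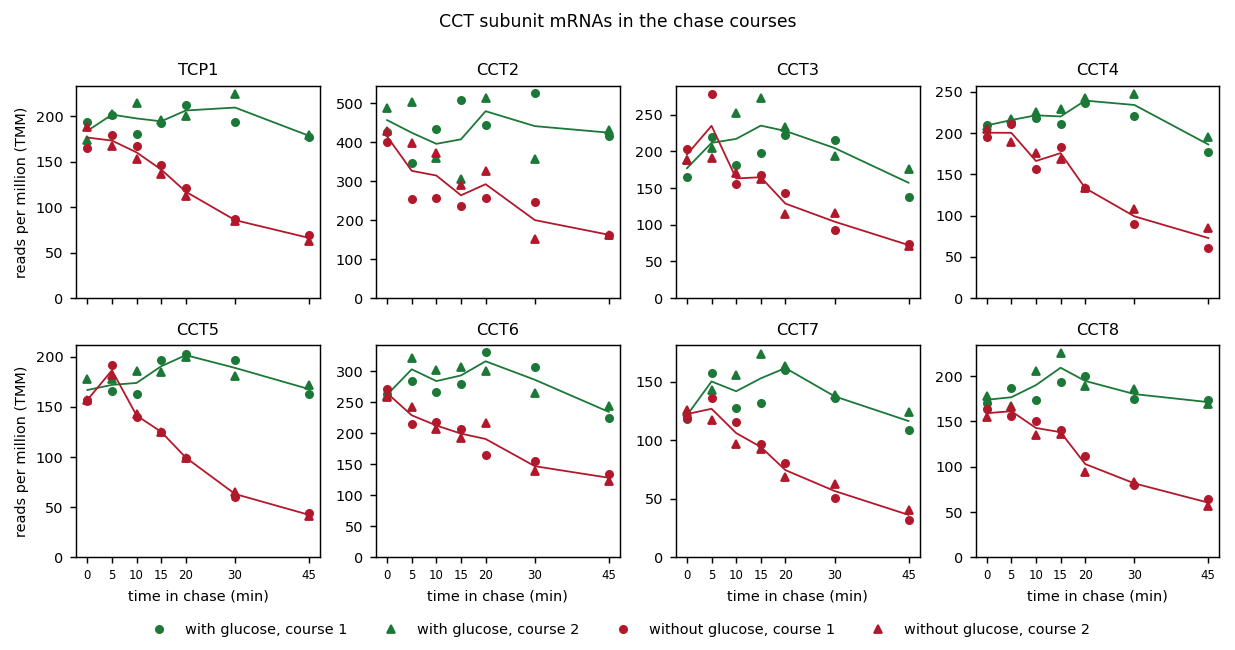
CPM (TMM scale, vertical axis) of each CCT mRNA against time in the chase in min, one panel per gene; points are single libraries and lines join the means of 2 courses, green with glucose and red without. In each panel the red points lie below the green ones at 30 and 45 min, and the panels of CCT2 and CCT3 show the widest spread between courses.

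At 30 min the largest change was in CCT5 and the smallest in CCT6. CCT5 was at 197 and 180.5 CPM with glucose and at 60.6 and 65.6 without it, a log2 change of -1.58 ± 0.116 (edgeR adjusted p 9.93e-12). TCP1 was at 194 and 225 against 87.2 and 84.3 (-1.29 ± 0.125), and CCT4 at 221 and 247 against 89.6 and 108 (-1.24 ± 0.140). CCT2 was the most variable of the 8, at 526 and 358 against 248 and 153 (-1.14 ± 0.268). Each of these genes had both libraries without glucose below both with it.

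On the weak-binding side CCT7 was at 136 and 139 CPM with glucose at 30 min and at 51.0 and 62.2 without it (-1.28 ± 0.155). CCT8 was at 175 and 185 against 80.3 and 82.9 (-1.14 ± 0.128). CCT3 was at 215 and 194 against 92.6 and 116 (-0.97 ± 0.188), and CCT6 at 307 and 265 against 155 and 139 (-0.96 ± 0.137). No gene of these 4 overlapped between the groups, and the edgeR adjusted p of all 8 genes at 30 min lay at or below 0.000616. Between 30 and 45 min CCT5 and CCT7 went on to -1.99 ± 0.120 and -1.67 ± 0.160, whereas CCT6 stood at -0.87 ± 0.138, and differences between genes were not tested.

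Within the courses without glucose all 8 fell from 0 to 30 min (35.0% of genes were called lower), by 0.85 (CCT6) to 1.31 (CCT5) on the log2 scale. Within the courses with glucose none of the 8 was called between the same times (2.50% of genes were called lower and 3.57% higher), and none had an unadjusted p below 0.05; their log2 changes ran from -0.05 for CCT2 to 0.21 for CCT3. The difference of these changes, which takes off what was there at 0 min, was called lower for all 8 genes (29.2% of genes were called lower), from -0.98 ± 0.192 for CCT6 to -1.49 ± 0.161 for CCT5. The call of CCT2 in this contrast was lost with library totals (-0.68, edgeR adjusted p 0.152) and without any of 4 libraries: replicate 1 with glucose at 0 or 30 min (-0.91 and -0.70), or replicate 2 lacking it at 0 or 30 min (-0.95 and -0.70). The comparison at 30 min shares its libraries with these, so the values stand side by side and do not support each other.

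**Figure D2:**
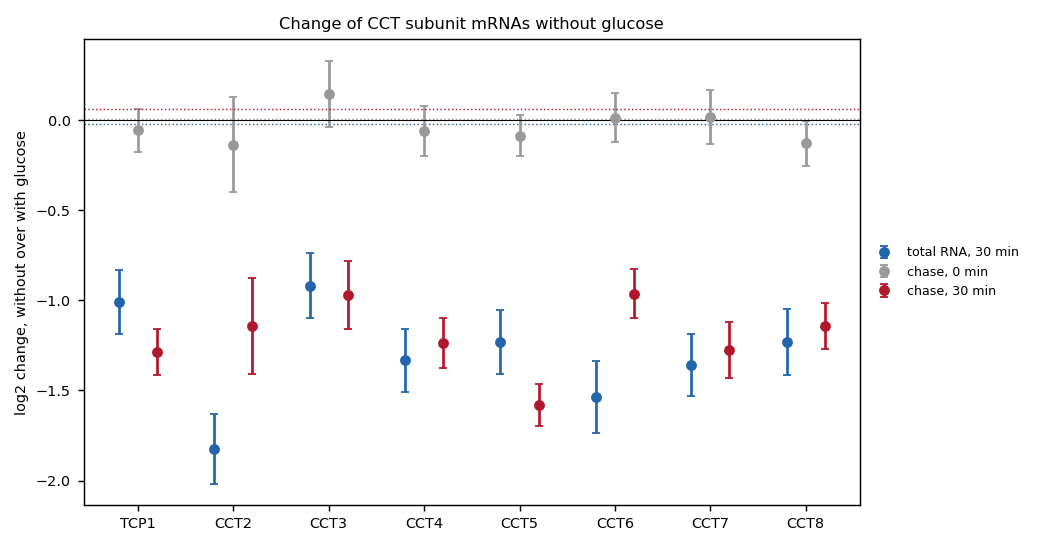
Log2 change without over with glucose (vertical axis) of each CCT mRNA in total RNA at 30 min (blue), at 0 min of the chase (grey) and at 30 min of the chase (red); points are edgeR estimates, bars 1 SE, n = 2 libraries per group, and dotted lines the median of all genes. The grey points sit near 0 and the blue and red points lie between -0.92 and -1.82.

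The order of the subunits in the chase was not that in total RNA. CCT6 changed by -1.54 ± 0.199 in the 4TU set and by -0.96 ± 0.137 in the chase, and CCT2 by -1.82 ± 0.193 and -1.14 ± 0.268. In 1 fit over both sets, only CCT6 was called for the difference between the experiments (0.59 ± 0.220, edgeR adjusted p 0.0296), while CCT2 had a larger estimate with a larger error (0.69 ± 0.359, adjusted p 0.116). Of all 5535 genes tested, 26.5% were called higher in this contrast. The CCT6 call was lost without replicate 1 of total RNA with glucose, replicate 2 of total RNA without it, or either replicate 2 of the chase with glucose or replicate 1 without it, and 6 CCT genes were called higher with library totals.

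The 8 mRNAs moved together over the 14 condition and time means of the chase. The median Pearson correlation of their log2 levels was 0.97 over the 28 gene pairs (0.85 to 0.99), beside 0.0015 over all pairs of 4895 genes. It was much the same within the 6 prefoldin genes (0.957, lowest 0.891) and within 6 genes of chaperones that bind at the ribosome (0.970, lowest 0.949). Within 12 genes of other cytosolic chaperones, among them HSP104, SSA2 and HSC82, it was 0.367. The points share libraries and most of the range comes from the late times without glucose, so this is a description. Against the mean of the other 7, TCP1 correlated most closely (r = 0.995) and CCT2 least (0.935). The profile is common: 1200 of 4887 other genes (24.6%) correlated with the CCT mean at 0.9 or above over the same 14 points. Closest were ELP2, a subunit of the Elongator complex that modifies tRNA (r = 0.996), MEU1, a phosphorylase of the methionine salvage pathway (0.995), RPA49, a subunit of RNA polymerase I (0.995), YDR341C, which encodes arginyl-tRNA synthetase (0.995), and SLX9, a factor for export of the small ribosomal subunit (0.995).

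The spread among the 8 was widest at 45 min without glucose. Each gene was centred on its own mean over the 14 points, and without glucose the SD of the 8 centred log2 values was 0.0451 at 0 min, 0.191 at 5 min, 0.0664, 0.116 and 0.101 at 10, 15 and 20 min, 0.139 at 30 min and 0.261 at 45 min, so it did not rise steadily. With glucose it lay between 0.0568 and 0.148, with the highest value also at 45 min. At 45 min without glucose the 8 ranged from -1.69 (CCT5) to -0.85 (CCT6) on this scale.

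Of the genes that work with CCT, all 6 prefoldin subunits were called lower in total RNA (median log2 change -1.14; 29.3% of all genes were called lower) and at 30 min of the chase (-1.35; 34.7% of all genes), among them GIM4 at -2.30 ± 0.366 and -1.37 ± 0.129. PLP2, which encodes a phosducin-like protein that is essential and needed for folding through CCT, was called lower in both sets (-0.85 ± 0.210 and -1.02 ± 0.123).

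Of the client genes, ACT1, which encodes actin, was not called in either set (0.36 ± 0.246 and 0.15 ± 0.122), and TUB2, which encodes beta-tubulin, was called lower in the chase (-0.59 ± 0.126) and had -0.47 ± 0.200 in total RNA. Of 4 actin and tubulin genes 1 was called lower in total RNA (TUB3) and 2 in the chase (TUB1 and TUB2), beside 29.3% and 34.7% of all genes called lower. Of 4 WD-repeat clients 3 were called lower in total RNA (CDC20, CDH1 and CDC55), while in the chase CDC20 and STE4 were called lower and CDC55 higher. CDC20, the mitotic activator of the anaphase-promoting complex, was lower in both (-1.91 ± 0.305 and -1.07 ± 0.196). Of 5 tubulin cofactor genes 1 was called lower in total RNA (CIN1) and 3 in the chase (CIN2, CIN4 and ALF1), beside the same 29.3% and 34.7% of all genes. Counts in lists this short say little against those shares.

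Other chaperone systems went both ways. Of the 12 other cytosolic chaperones 8 were called higher and 1 lower (YDJ1) in total RNA (29.4% of all genes were called higher). Their median was 1.80, and HSC82, SSA2 and SSE1 were not called (-0.12, 0.35 and 0.39). At 30 min of the chase 9 of the 12 were higher and 1 lower (YDJ1), with a median of 3.58 (38.3% of all genes were called higher). HSP104, the disaggregase, was higher by 3.30 ± 0.237 and 5.20 ± 0.250. HSP60, the mitochondrial chaperonin and a distant relative of CCT, was higher by 0.91 ± 0.204 and 1.83 ± 0.159. HSP10, listed with it, was not called in total RNA (0.35) and was higher by 0.51 in the chase. Within the courses with glucose HSP104 and HSP60 fell from 0 to 30 min (-0.99 and -0.73). There 5 of the 12 were called lower, beside 2.50% of all genes, and the contrast at 30 min includes that fall. The chaperones that bind at the ribosome were called lower in 3 of 6 genes in total RNA (median -0.47) and in 6 of 6 at 30 min of the chase (median -1.77), beside 29.3% and 34.7% of all genes called lower. The CCT genes thus shared the direction of prefoldin and not that of HSP60 or most of these 12 chaperones. The lists compared here were written with earlier results of these data known.

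On polysomes, the fraction of lysate that carries several ribosomes per mRNA, CCT mRNAs were lower than in total RNA for 4 of the 8 genes with glucose (13.6% of the 5540 genes tested were called lower). TCP1 was at 181 and 152 CPM on polysomes against 290.5 and 279 in total RNA (-0.77 ± 0.175, edgeR adjusted p 0.00413). CCT6 was at 149 and 142 against 266 and 213 (-0.72 ± 0.195), CCT8 at -0.55 ± 0.181 and CCT4 at -0.54 ± 0.173. The other 4 were not called and had log2 ratios between -0.32 (CCT5) and -0.03 (CCT3). The median of the 8 was -0.43, beside -0.02 over all genes. The count was 1 without replicate 1 of total RNA or replicate 2 of polysomes, and 8 with library totals, a scaling that moves the median of all genes in this ratio by -0.51.

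Without glucose 6 of the 8 were called lower on polysomes than in total RNA (24.4% of genes were called lower). TCP1 was at 51.1 and 56.2 CPM on polysomes against 147 and 135 in total RNA, a log2 ratio of -1.40 ± 0.180. CCT5 was at 31.6 and 31.9 against 80.9 and 82.6 (-1.36 ± 0.182), and CCT4 at 48.7 and 49.9 against 115 and 101 (-1.13 ± 0.178). In these 3 genes both polysome libraries lay below both total RNA libraries.

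CCT6 was at 45.9 and 32.4 CPM on polysomes against 86.1 and 79.3 in total RNA without glucose (-1.08 ± 0.202). CCT8 was at 40.9 and 49.0 against 86.2 and 83.1 (-0.91 ± 0.187), and CCT2 at 67.7 and 52.9 against 102 and 97.9 (-0.73 ± 0.191), a call that was lost without replicate 2 of polysomes (edgeR adjusted p 0.0568). CCT3 and CCT7 were the genes not called. CCT3 was at 115 and 117 on polysomes against 106 and 109 in total RNA (0.11 ± 0.180), and CCT7 at 56.6 and 55.6 against 59.1 and 65.7 (-0.15 ± 0.172). The median of the 8 was -0.996, beside 0.01 over all genes.

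The change in polysome association between the conditions was called for CCT5 alone (-1.04 ± 0.250, edgeR adjusted p 0.0103), which went from -0.32 with glucose to -1.36 without it; 8.01% of genes were called lower in this contrast. The estimates for TCP1, CCT2 and CCT4 lay between -0.62 and -0.59 with SE of 0.247 to 0.267 and were not called. CCT3 was at 0.13 ± 0.254 and CCT7 at -0.09 ± 0.241. The median of the 8 was -0.48, beside 0.01 over all genes. The CCT5 call was lost without either replicate of total RNA without glucose (-1.05 and -1.03, adjusted p 0.0573 and 0.0593).

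These ratios were also taken in the libraries without 4TU (strain KWY165, against KWY11376 in the 4TU set), without a replicate check. With glucose the log2 ratio of polysomes to total RNA was highest for CCT3 (0.28) and CCT7 (0.23) and lowest for CCT2 (-0.94), with a median of -0.27. Without glucose the median was -0.60, CCT5 was lowest (-1.19) and CCT3 highest (-0.24). The change between the conditions was negative for all genes but CCT2, which was at 0.62, whereas the 4TU set gave CCT2 -0.60 ± 0.267. CCT3 and CCT7 also differed, at -0.52 and -0.72 here against 0.13 ± 0.254 and -0.09 ± 0.241 in the 4TU set. The other genes were negative in both sets, and without 4TU CCT4 was lowest (-0.87) and CCT5 stood at -0.75. The median change was -0.48, beside -0.08 over 5351 genes.

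**Figure D3:**
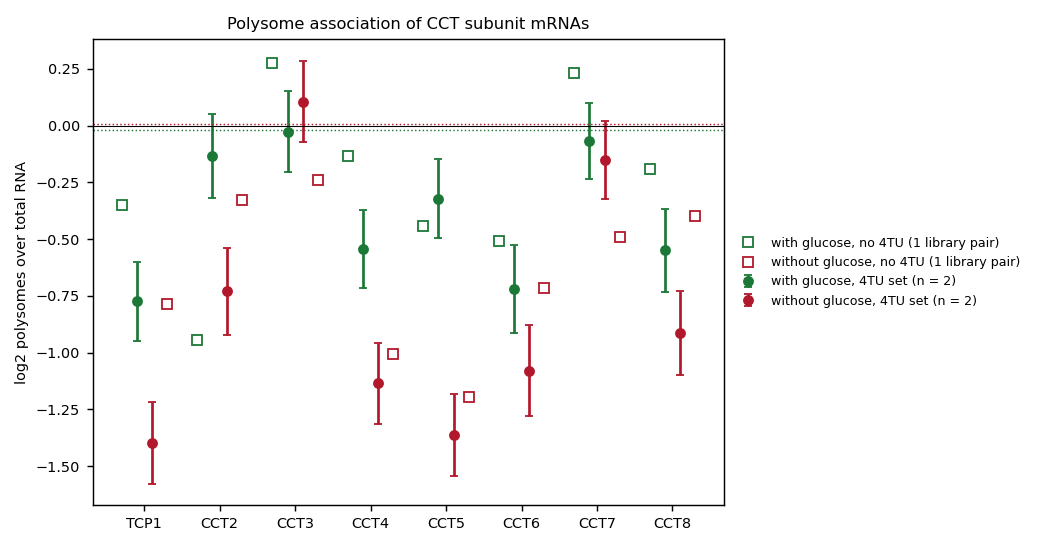
Log2 ratio of polysomes to total RNA (vertical axis) of each CCT mRNA, green with glucose and red without; filled points are edgeR estimates of the 4TU set with bars of 1 SE (n = 2 libraries per group), open squares single pairs of libraries without 4TU, and dotted lines the median of all genes. In the 4TU set TCP1 and CCT5 reach -1.40 and -1.36 without glucose, and CCT3 and CCT7 lie near 0 in both conditions.

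In total RNA of the 4TU set the 8 CCT genes together had more labelled than unlabelled reads with glucose, and few labelled reads without it. A labelled read is one the authors' pipeline counted as holding a T-to-C change, and of all CCT reads in total RNA 56.2% and 63.2% were labelled with glucose against 2.08% and 1.68% without it. In the libraries without 4TU the share lay between 0.0143% and 0.144%. The log2 odds of being labelled were lower without glucose for all 8 genes, from -5.27 ± 0.316 (TCP1) to -7.59 ± 0.401 (CCT6), as they were for 99.6% of the 5381 genes tested. In total RNA without glucose TCP1 had the highest share of the 8, 4.25% and 3.94% of reads (Wilson 95% intervals 3.53% to 5.10% and 3.20% to 4.84%), and it also had the highest share in the polysome library without glucose and 4TU, 0.421% (0.204% to 0.867%). Behind the 109 and 86 labelled TCP1 reads in total RNA the tables list 9 and 13 conversions. The intervals cover counting error only.

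With glucose, polysome CCT reads were less often labelled than those of total RNA. The shares were 43.3% and 41.3% of all CCT reads on polysomes, below both total RNA libraries. By gene, the log2 odds were called lower for 7 of the 8 (34.4% of genes were called lower), from -0.90 ± 0.276 (CCT2) to -1.20 ± 0.289 (TCP1), and CCT6 had -0.75 ± 0.308 (edgeR adjusted p 0.0513). The median of the 8 was -1.06 and that of all genes -1.02. Leaving out 1 library gave 0 to 5 genes called lower, with 0 without replicate 2 of total RNA or of polysomes and 2 without replicate 1 of polysomes.

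Without glucose only CCT6 was called, with a higher labelled share on polysomes (0.725% of genes were called higher). On polysomes 26 of 520 and 18 of 393 CCT6 reads were labelled, 5.00% and 4.58% (Wilson 95% intervals 3.43% to 7.23% and 2.92% to 7.12%). In total RNA 10 of 1498 and 11 of 1277 were, 0.668% and 0.861% (0.363% to 1.22% and 0.482% to 1.54%), and the log2 odds differed by 2.72 ± 0.484 (edgeR adjusted p 0.000433). The intervals of the polysome libraries lay above those of total RNA. For CCT6 fewer conversions than labelled reads are listed. On polysomes there were 4 and 4 among 10093 and 7866 covered T positions, and in total RNA 4 and 6 among 29829 and 25912. Conversions per covered T were thus also higher in both polysome libraries, but they rest on these few conversions. Tested on conversions per covered T, no CCT gene was called in this contrast.

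For the difference between the conditions, too, calls on labelled reads were not made on conversions. The labelled odds on polysomes relative to total RNA were called higher without than with glucose for 6 genes, all but CCT3 and CCT7 (17.5% of genes were called higher). The 6 values ran from 1.33 ± 0.466 (TCP1) to 3.47 ± 0.574 (CCT6). By size, from the highest, CCT6 ranked 303, TCP1 2256 and CCT3 (0.97, not called) 2992 of 5381, so some CCT values lay near the middle of all genes. On conversions per covered T none of the 8 was called, and leaving out 1 library gave 1 to 5, with 3 or fewer without any of the libraries with glucose or replicate 2 of total RNA without it. Over all genes of the 4TU set, conversions per labelled read lay between 0.335 and 0.614, and for the CCT genes between 0.176 and 0.493, whereas in the chase the CCT genes had 1.13 to 1.71. What the labelled reads without a listed conversion are was not tested.

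In the chase each CCT mRNA began with a similar labelled share in both conditions and lost it more slowly without glucose, while the starting share differed between the genes. At 0 min CCT2 had the lowest share, 47.5% and 46.1% with glucose and 47.6% and 49.1% without it. CCT3 had the highest, 72.1% and 70.5% against 73.9% and 71.0%. At 45 min CCT2 was at 9.12% and 8.93% with glucose and at 29.8% and 33.2% without it, and CCT3 at 13.7% and 14.7% against 53.0% and 56.5%. For all 8 genes both courses without glucose lay above both with it at 15, 30 and 45 min. The median share over all genes parted in the same way. It was 33.2% and 35.2% with glucose against 54.2% and 54.6% without it at 15 min, and 10.4% and 11.3% against 31.0% and 34.9% at 45 min. The Wilson 95% interval of a single CCT share was at most 14.9 percentage points wide.

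The log2 odds of label fell by 0.71 (CCT2) to 0.84 (CCT3) per 10 min with glucose, with SE of 0.0281 to 0.0350, and all 8 slopes were called (99.8% of the 5224 genes tested were called lower). Without glucose they fell by 0.17 (CCT4) to 0.36 (CCT7) per 10 min, again all called (91.8% of genes). Over 0 to 20 min alone only 3 of these slopes without glucose were called, and CCT4 was not called over 0 to 30 min (edgeR adjusted p 0.0621) or with limma on 1 slope per course (adjusted p 0.0508). The difference of slopes was called higher for all 8, from 0.47 ± 0.0531 (CCT7) to 0.64 ± 0.0472 (CCT4), beside 93.2% of genes called higher. The median difference of the 8 was 0.54, beside 0.39 over all genes.

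**Figure D4:**
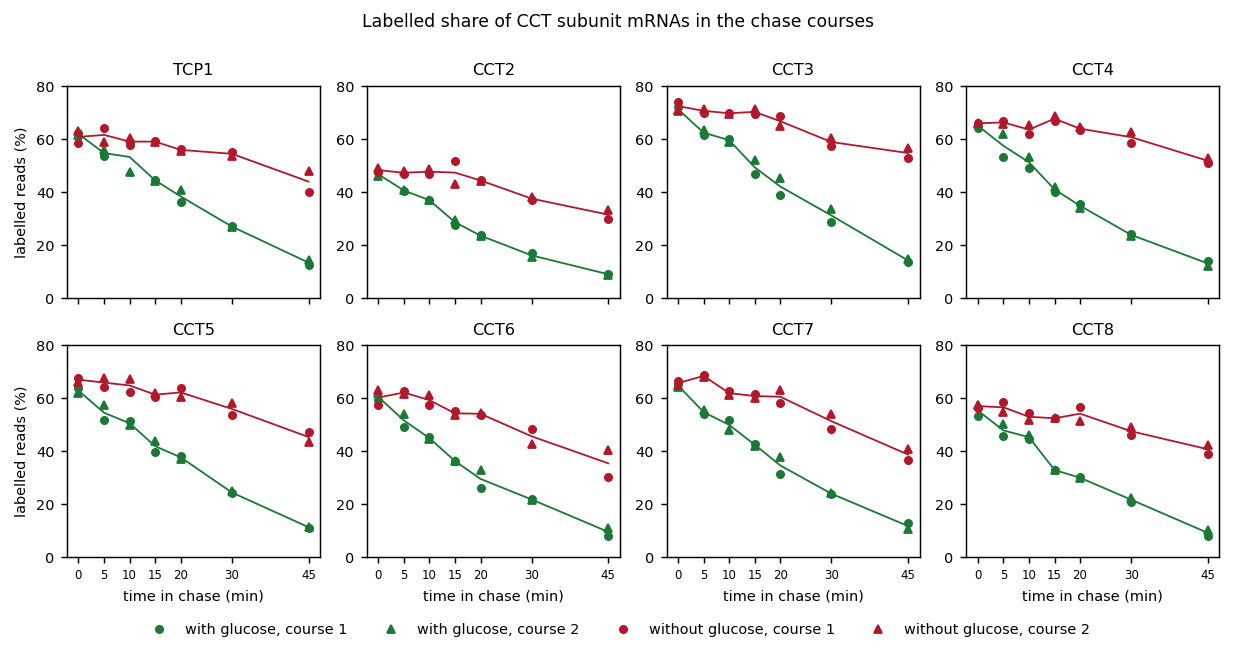
Labelled share of reads in percent (vertical axis) of each CCT mRNA against time in the chase in min; points are single libraries and lines join the means of 2 courses, green with glucose and red without. The green lines reach about 8 to 15 percent at 45 min and the red lines stay between about 30 and 57 percent.

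The labelled share is a ratio, so it moves with the unlabelled reads as well, and the spike-in reads in the chase libraries allow the parts to be followed apart. Per spike-in read and relative to 0 min, labelled CCT reads at 15 min stood at 0.799 and 0.610 with glucose, above 0.585 and 0.561 without it. They stood at 0.491 and 0.262 with glucose and at 0.250 and 0.273 without it at 30 min. At 45 min they were at 0.166 and 0.106 with glucose and 0.126 and 0.121 without it, so that the courses overlapped at 30 and 45 min. They also overlapped at 5, 10 and 20 min. The gap at 15 min was shared by labelled reads of all genes, at 0.889 and 0.727 with glucose against 0.670 and 0.690 without it. Unlabelled CCT reads differed: at 30 min they stood at 2.43 and 1.23 with glucose and at 0.401 and 0.405 without it.

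Over all genes, unlabelled reads without glucose were at 0.808 and 0.947 of their start at 30 min, above the values of CCT in both courses, and labelled reads at 0.413 and 0.530. CCT reads of both kinds together were down to 0.311 and 0.325 without glucose at 30 min and 0.197 and 0.171 at 45 min, beside 0.561 and 0.687 and then 0.510 and 0.469 for all reads. With glucose CCT reads stood at 1.29 and 0.661 at 30 min, and the gap between these courses was shared by all reads (1.33 and 0.806). The spike-in reads numbered 31671 to 213959 per library and carry their own error into these ratios.

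Fitted per spike-in read, an alternative added after the data were seen, the labelled CCT reads fell both with and without glucose. The slopes ran from -0.54 (TCP1) to -0.66 (CCT6) log2 units per 10 min with glucose, where 99.0% of the 5224 genes were called lower, and from -0.61 (CCT6) to -0.80 (CCT5) without it, where 81.5% were. The difference was called for CCT5 alone, and in the opposite direction to the labelled share (-0.23 ± 0.0850, edgeR adjusted p 0.0215; 8.50% of genes were called lower). The other 7 differences lay between -0.17 (CCT7, ± 0.0866) and 0.05 (CCT6, ± 0.0804) and were not called. Over all genes the median difference was 0.17 and 44.3% were called higher, none of the 8 CCT genes among them.

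**Figure D5:**
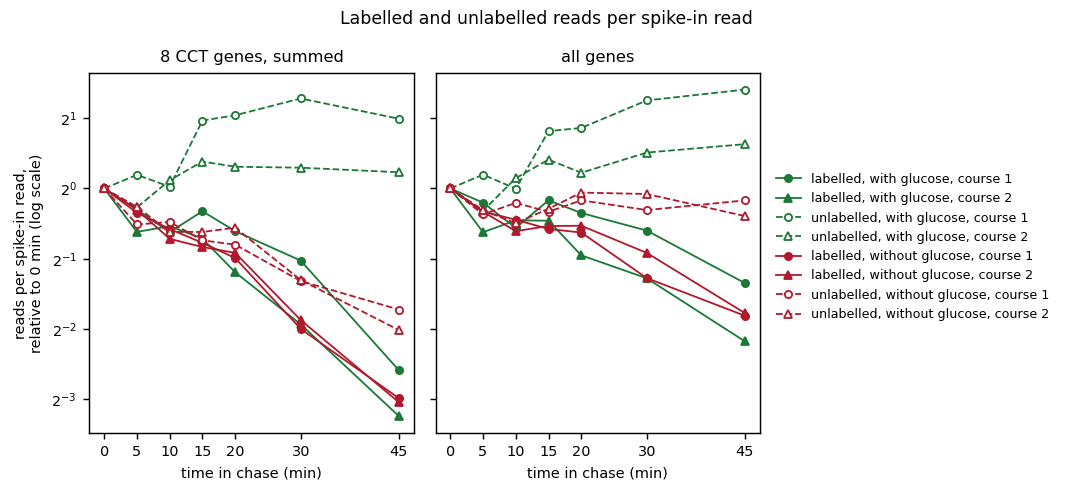
Labelled (filled points, solid lines) and unlabelled (open points, dashed lines) reads per spike-in read relative to 0 min on a log scale (vertical axis) against time in the chase in min, for the sum of the 8 CCT genes (left) and for all genes (right); green with glucose, red without, circles course 1 and triangles course 2. On the left the solid lines of both conditions overlap at 30 and 45 min, with 1 course with glucose higher at 30 min (0.491), while the dashed red lines drop to 0.401 and 0.405 at 30 min.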

How the data were processed

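The tables deposited by the authors hold, for each library and each 3′ end window of 5560 yeast features, a count of reads, a count of labelled reads (those with a T-to-C change), counts of covered T positions and of conversions, the conversion rate as a fraction, and CPM; per the file headers, the counting tool was slamdunk 0.4.3. The fraction equals conversions over covered T positions, and the deposited CPM was not used in a test. The submitters' processing notes add cutadapt, Bowtie, featureCounts and TopHat2, with no role; no source used here names a genome build. Libraries were made with QuantSeq, per the labels' protocols, and 5558 features matched a locus tag of the RefSeq R64 table.

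Of 112 samples, 40 had tables and 72 are not analysed here. A reporter and the spike-in features were left out of library totals. Counts were tested in edgeR 4.0.16 (R 4.3.3) with the robust quasi-likelihood test, TMM, its expression filter and Benjamini-Hochberg adjustment over all genes tested, threshold 0.05, with no replicate block: 8 libraries of the 4TU set and 28 of the chase were fitted apart. Label was tested as the odds of labelled against unlabelled reads, with an intercept per library, for genes with a mean of at least 50 reads and 10 labelled reads in sum; chase slopes ran over 0 to 45 min. A difference with 1 library per group has no test. Likeness over the chase used genes with a mean of at least 100 reads and log2 CPM with a prior count of 2. Alternatives were DESeq2 1.42.0, other scalings, no filter, other read minima, conversions, shorter time windows, limma 3.58.1 on 1 slope per course, a replicate block and leaving out libraries. The fits were tested on simulated data. The 8 genes and the lists were chosen with earlier results of these data known, and all 8 genes are described in every comparison.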

Additional observations from a re-analysis of the deposited data

Results flagged for a closer look

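These results are pointed out because a test of the difference between 2 contrasts was past its threshold (edgeR's quasi-likelihood test, adjusted over all genes). The change of abundance without glucose differed between the chase at 30 min and total RNA for CCT6, by 0.59 on the log2 scale, smaller in the chase. Of all genes, 26.5% were called higher in this contrast, and the CCT6 call was lost without any of several single libraries. Polysome association changed between the conditions for CCT5, by -1.04 (8.01% of genes were called lower), a call lost without either replicate of total RNA without glucose.

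The change from 0 to 30 min differed between the courses without and with glucose for all 8 genes, by -1.23 for TCP1, -1.005 for CCT2, -1.18 for CCT4, -1.49 for CCT5, -1.12 for CCT3, -0.98 for CCT6, -1.29 for CCT7 and -1.01 for CCT8. Of all genes, 29.2% were called lower in this contrast. These 8 values share their libraries, and the call of CCT2 was lost with library totals (-0.68) and without any of 4 libraries (-0.95 to -0.70). The labelled odds on polysomes relative to total RNA differed between the conditions by 1.33 for TCP1, 1.47 for CCT2, 1.67 for CCT4, 2.00 for CCT5, 3.47 for CCT6 and 2.01 for CCT8. In this label contrast 17.5% of genes were called higher, and none of these 6 was called on conversions per covered T.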

How the results depend on the processing

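The 8 calls in total RNA, those at 30 and 45 min of the chase, and those of the change within the courses without glucose held under every alternative run for them. With library totals, lower calls among the 8 numbered 0 at 5 min, 0 at 10 min and 4 at 15 min of the chase and 8 on polysomes with glucose, and 6 genes were higher in the chase against total RNA; with spike-in scaling there were 0 at 5 min and 0 at 10 min. Library totals moved the median of all genes by -0.43 in total RNA, -0.51 and -0.74 for polysomes with and without glucose, and 0.30 in the chase at 30 min, and spike-in scaling by -0.48 in the latter. Relative to that median the CCT median stayed at -1.27 against -1.26 in total RNA, -1.01 against -1.004 on polysomes without glucose, and at -1.25 (library totals) and -1.26 (spike-in reads) against -1.25 at 30 min.

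These scalings also turned small, uncalled values. From 0 to 30 min with glucose, library totals gave -0.085 for TCP1, -0.057 for CCT3, -0.11 for CCT4, -0.086 for CCT5, -0.14 for CCT6, -0.087 for CCT7 and -0.22 for CCT8, and spike-in scaling -0.042, -0.038, -0.080, -0.066, -0.10, -0.060 and -0.19 in the same order. At 0 min they gave -0.010 and -0.057 for CCT6 and -0.0075 and -0.067 for CCT7. Library totals gave 0.45 for TCP1, 0.65 for CCT3 and 0.38 for CCT5 in the chase against total RNA, and for CCT3 -0.63 on polysomes without glucose and -0.11 in the change of polysome association.

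With conversions per covered T, 4 CCT genes were lower on polysomes with glucose, 0 were called on polysomes without glucose and 0 in the difference, and CCT2 (-0.81) and CCT3 (0.38) turned sign in the former. Over 0 to 20 min, 3 slopes without glucose were called. With labelled reads per spike-in read, chosen after seeing the data, 0 slope differences were higher and 1 lower, with TCP1 at -0.11, CCT2 -0.041, CCT3 -0.051, CCT4 -0.033, CCT5 -0.23, CCT7 -0.17 and CCT8 -0.025; the share and the labelled reads differ by the unlabelled reads in the denominator.

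Over all genes the higher and lower calls moved with scaling: in total RNA from 1628 and 1625 to 1052 and 2344 with library totals, on polysomes from 848 and 753 to 239 and 2051 with glucose and from 1424 and 1350 to 429 and 2775 without it, and in the change of polysome association from 452 and 444 to 224 and 516. In the chase at 30 min 2117 and 1918 became 2622 and 1409 with library totals and 1186 and 2446 with spike-in reads. With glucose from 0 to 30 min 197 and 138 became 122 and 1032, and 18 and 125; the chase against total RNA went from 1469 and 1137 to 2994 and 412. Conversions gave 891 in place of 1850 lower calls of label on polysomes with glucose and 366 in place of 944 higher ones in the difference.

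Leaving out 1 library at a time, lower calls ranged from 0 to 1 at 5 min, 0 to 7 at 10 min, 5 to 6 at 15 min, 1 to 4 on polysomes with glucose, 0 to 1 in the change of polysome association and 0 to 5 for label on polysomes with glucose. In the chase against total RNA 0 to 2 were higher and 0 to 1 lower, and in the difference of label 1 to 5 were higher. A group left with 1 library was assumed to vary like the others. Signs turned within these ranges: at 0 min, -0.16 to 0.035 for TCP1, -0.18 to 0.0052 for CCT5, -0.020 to 0.048 for CCT6 and -0.031 to 0.060 for CCT7; at 5 min, -0.15 to 0.40 for CCT3; from 0 to 30 min with glucose, -0.35 to 0.20 for CCT2. In the chase against total RNA they were -0.22 to 0.12 for CCT3, -0.033 to 0.24 for CCT4, -0.054 to 0.23 for CCT7 and -0.077 to 0.26 for CCT8. On polysomes with glucose they were -0.32 to 0.013 for CCT2, -0.19 to 0.16 for CCT3 and -0.14 to 0.013 for CCT7, in the change of association -0.050 to 0.30 for CCT3, and for label on polysomes without glucose -0.36 to 0.23 for CCT3 and -0.35 to 1.01 for CCT7.

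Deviations of same-numbered libraries correlated at -0.29 to 0.23 over genes. With so few libraries this cannot show whether replicate numbers pair the samples, and times within a course were not compared. With the replicate number as a block, 0 CCT genes were lower at 5 min, no other count of CCT calls moved by over 1.5 times, and TCP1 at 10 min and in the difference of label and CCT2 at 15 min were no longer called. Leaving out every gene with a multimapped read removed all 8 genes, and spike-in scaling was not run for the chase against total RNA, since the 4TU set holds no spike-in reads. CCT2 lost its call at 20 min in 3 alternatives and in the change from 0 to 30 min in 5. Each group had 2 libraries, which limits the precision for single genes, and in the 4TU set without glucose label rests on 8 to 109 labelled reads per gene and library.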
